A study of Mus musculus with 12 samples.

Results

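The genes described here were those of glycolysis and glucose use. The list held 38 named genes, from glucose and lactate carriers through the glycolytic enzymes and their regulators to glycogen synthesis, and was drawn up by name and function, with earlier results of these data known. No measured value enters its rule. Each gene was read from the brightest probe set that the annotation of the Affymetrix mouse array pairs with that gene alone. This gave 34 measured genes of 18194 genes on the array that could be read in the same way. Gapdh was covered only by the control probe sets of the array and was kept out of the tests. Gpi1, Pfkfb1 and Eno1 had no such probe set and were not analysed here.

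The cells were B16-OVA, a line of mouse melanoma made to express ovalbumin as a model antigen, and the question was how the MEK inhibitor (MEKi) GDC-0623 acts on the tumor cells themselves. The 4 groups were cells given 100 nM GDC-0623 for 72 h, cells given the solvent DMSO for 72 h, cells given 100 nM GDC-0623 for 24 h, and cells given DMSO for 24 h, with 3 arrays in each. All 4 groups shared the same line, which was seeded at 1 density the day before treatment and grown as a monolayer without immune or stromal cells. The submitters called the 3 samples of a group biological replicates, but separate cultures were not stated, so that the spread behind each p-value is the one among these samples and could be technical. The number of arrays limits the precision of every value. Values are log2 signals after robust multichip averaging (RMA), so that a difference of 1 is a change of 2-fold. They are given in the order of replicates 1, 2 and 3.

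Glycolysis breaks glucose down to pyruvate in the cytosol and yields ATP and building blocks. Glucose enters through carriers of the GLUT family, is trapped by hexokinase and is committed to the pathway by phosphofructokinase. Pyruvate is then either turned into lactate and exported, or passed to the pyruvate dehydrogenase complex of mitochondria, which the PDK kinases switch off. Tumor cells are known for high rates of glycolysis and lactate release, and many genes of the pathway come in isoforms that differ in tissue and in regulation. Hypoxia-inducible factors and MYC are well-known activators of these genes, and ERK, the kinase that MEK activates, is one of the signals known to raise MYC.

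The arrays were close to each other. Array medians lay between 5.31 and 5.42, and pairs of arrays correlated at 0.996 to 0.998 within groups and at 0.987 to 0.997 between groups. All 8 melanocyte markers were bright, with Gpr143 lowest at the 95.3rd percentile of probe sets, whereas the 16 measured markers of immune, endothelial, fibroblast, epithelial and muscle cells stayed between 2.81 and 6.57 on every array. By their means these ranged up to the 60.7th percentile (Epcam), so that some lay above the median probe set. Of 13 measured genes of ERK output, the check of the treatment, 7 were lower and 1 higher with MEKi at 72 h, and 10 were lower and 0 higher at 24 h. Among them Dusp6, Spry4 and Etv5 were lower in MEKi cells than in DMSO cells at 72 h (-1.29, -0.58 and -1.29) and at 24 h (-1.41, -2.08 and -4.06), each with an adjusted p below 0.05, and the 72 h call of Spry4 ended in 5 of the 6 fits that left out 1 array (adjusted p up to 0.157). The MEKi arrays were uneven. At 24 h replicate 3 was the highest MEKi array for Etv5 (4.35, 4.22 and 6.08), Dusp6 (9.95, 9.88 and 10.58) and Spry4 (3.75, 3.89 and 4.17), but not for Egr1 (4.66, 5.01 and 4.69). At 72 h replicate 3 was far above the other MEKi arrays for Egr1 (5.91, 6.47 and 9.87), but not for Dusp6 (9.85, 9.51 and 9.82). The 72 h and 24 h arrays differed in technical measures as well. The signal of the Dap control RNA, a spike-in, was higher at its 3' end than at its 5' end by 1.421 ± 0.066 at 72 h and by 2.057 ± 0.048 at 24 h (SD, n = 6 each, exact two-sided permutation p = 0.00216). The same measure for actin was 0.165 ± 0.033 at 72 h and 0.277 ± 0.016 at 24 h (SD, n = 6 each, exact two-sided permutation p = 0.00216), and array medians averaged 5.393 at 72 h and 5.325 at 24 h. The interquartile range of the signals was narrower at 72 h, at 4.093 ± 0.051 against 4.282 ± 0.034 at 24 h (SD, n = 6 each, exact two-sided permutation p = 0.00216). The part of these measures in the changes over time was not tested. Of the 34 measured genes, 32 were brighter than the median probe set mean of 5.363. Pdk2 and Pdk4 were dimmer, with means of 3.65 and 3.02 over the 12 arrays.

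With MEKi for 72 h, 8 of the 34 genes were lower than with DMSO (Pdk1, Hk2, Hk1, Slc2a1, Slc16a3, Pgm1, Pdk3 and Slc2a3) and 1 was higher (Eno2) at an adjusted p below 0.05 in limma's moderated test, against 5.14% of all genes called lower and 4.03% called higher. The other 25 did not pass. Among the 11335 genes brighter than the median probe set, 6.19% were called higher and 7.95% lower. The median difference was -0.21, against 0.01 over all genes, and 27 of the 34 differences were negative. At 72 h the genes that did not pass lay between -0.69 and 0.22. The signals are from bulk RNA, in which fewer cells with a transcript and less transcript per cell cannot be told apart. MEKi replicate 2 had the lowest value of its group for 25 of the 34 genes, and DMSO replicate 2 had the lowest of its group for 20. With the replicate number as a block, 13 genes passed at 72 h, the same 9 and Pfkl, Pfkp, Aldoc and Gys1, all of them lower. Calls for Hk1, Hk2 and Eno2 held whichever array was left out. Without DMSO replicate 1 only 3 genes passed, and without MEKi replicate 1 or without MEKi replicate 2 there were 4.

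With MEKi for 24 h, 4 of the 34 genes were higher than with DMSO (Aldoc, Slc16a3, Pfkfb2 and Eno3) and 2 were lower (Hk1 and Slc2a3), against 5.01% of all genes called higher and 5.86% called lower. The median difference was 0.05, against 0.01 over all genes. No gene reached a change of 2-fold, and the 28 that did not pass lay between -0.35 and 0.41. Without MEKi replicate 3 there were 10 calls. The 2 genes called lower at both times were Hk1 and Slc2a3.

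Over time, most glucose-use genes rose in DMSO cells, and a smaller number rose in MEKi cells. With MEKi, 8 of the 34 genes were higher at 72 h and 4 were lower, against 13.5% and 16% of all genes. With DMSO, 23 of the 34 were higher at 72 h and 5 were lower, against 14.2% and 16.9% of all genes. Among the brighter genes the shares called higher were 16.9% with MEKi and 17.9% with DMSO. The median change was 0.08 with MEKi and 0.39 with DMSO, where the median over all genes was 0.04 in both. These 2 comparisons share no arrays. Of the 23 genes that rose with DMSO, 8 rose with MEKi too, 15 did not pass with MEKi, and 22 had the smaller change with MEKi, Eno2 being the exception. The 23 were picked by their change with DMSO, which by itself favours a smaller change with MEKi. These counts are therefore no test of a difference between the treatments, for which the direct test over all 34 genes is given below. After each array was centred on its median the counts were 5 higher and 5 lower with MEKi, and 19 higher and 5 lower with DMSO.

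The MEKi effect at 72 h minus the MEKi effect at 24 h, which is also the difference between the change over time with MEKi and that with DMSO, was tested directly in 1 fit of all 12 arrays. At an adjusted p below 0.05, this difference passed with a positive sign for 1 gene (Eno2) and with a negative sign for 7 (Pdk1, Aldoc, Slc16a3, Hk2, Pgm1, Ldhb and Pkm), against 1.97% and 2.10% of all genes. The median over the 34 genes was -0.26, against 0.00 over all genes, with 29 negative and 5 positive values. The comparisons with MEKi at 72 h and over time with DMSO share the DMSO arrays of 72 h, and those with MEKi at 24 h and over time with DMSO share the DMSO arrays of 24 h, so that they are not independent of each other. In all, 3 genes passed in none of the 5 comparisons: Ldha, Pdk4 and Pgm2.

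**Figure D1:**
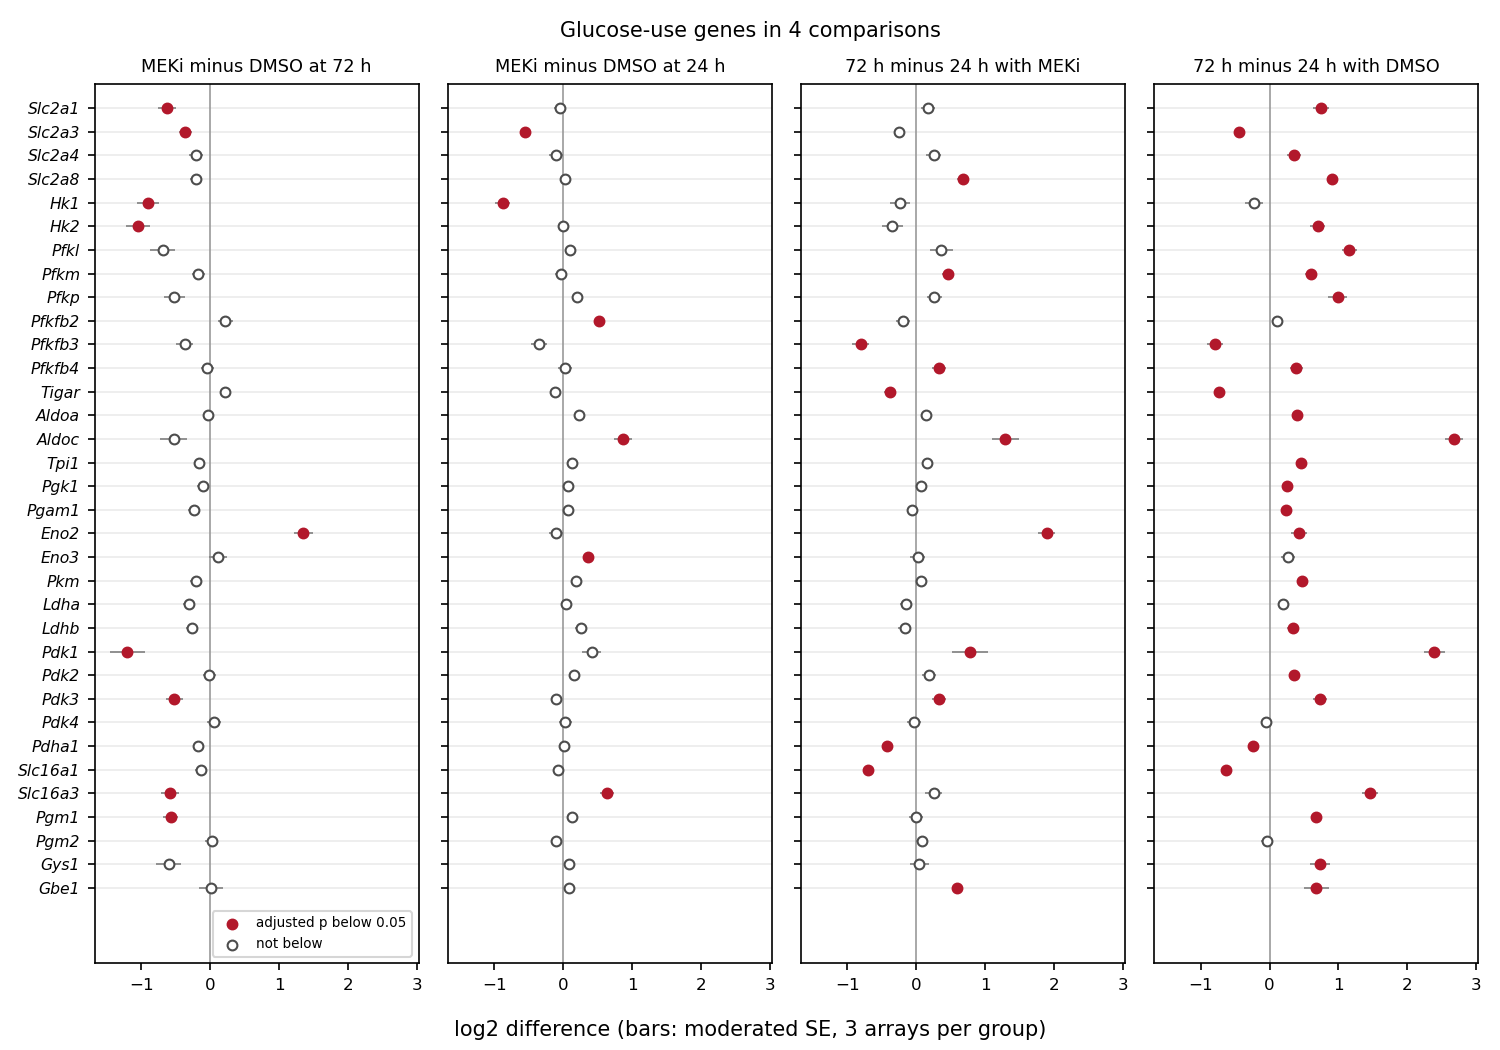
Log2 difference (horizontal axis, bars are moderated SE, 3 arrays per group) of the 34 measured genes, ordered from carriers at the top to glycogen genes at the bottom, in 4 comparisons. Filled points passed at an adjusted p below 0.05: 9 genes with MEKi at 72 h, 6 with MEKi at 24 h, 12 over time with MEKi and 28 over time with DMSO.

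Promoters of Pdk1 and Aldoc, which had the largest changes over time with DMSO among the 34 genes, of the hexokinases Hk2 and Hk1, and of Eno2, which alone of the 34 was called higher with MEKi at 72 h, are shown because hypoxia-inducible factors are known to bind the letters ACGTG or GCGTG in many glycolytic promoters. Each sequence is the 250 bases before the RefSeq transcript start in the build GRCm38.p6, on the strand of the gene, 5' to 3', with each match to ACGTG or GCGTG on either strand in capitals (CACGT and CACGC are the same letters on the other strand).
Pdk1, chr2:71872974-71873223, plus strand: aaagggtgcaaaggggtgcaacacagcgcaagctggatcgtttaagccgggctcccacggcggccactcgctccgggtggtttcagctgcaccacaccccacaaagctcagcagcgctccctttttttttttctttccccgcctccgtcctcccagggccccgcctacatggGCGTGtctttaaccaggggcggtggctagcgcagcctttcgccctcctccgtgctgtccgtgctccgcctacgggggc
Aldoc, chr11:78322823-78323072, plus strand: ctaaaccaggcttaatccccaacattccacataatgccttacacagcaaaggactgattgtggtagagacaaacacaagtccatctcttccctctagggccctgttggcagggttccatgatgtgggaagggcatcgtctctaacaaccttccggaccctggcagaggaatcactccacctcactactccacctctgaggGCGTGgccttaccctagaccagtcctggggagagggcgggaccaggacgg
Hk2, chr6:82774455-82774704, minus strand: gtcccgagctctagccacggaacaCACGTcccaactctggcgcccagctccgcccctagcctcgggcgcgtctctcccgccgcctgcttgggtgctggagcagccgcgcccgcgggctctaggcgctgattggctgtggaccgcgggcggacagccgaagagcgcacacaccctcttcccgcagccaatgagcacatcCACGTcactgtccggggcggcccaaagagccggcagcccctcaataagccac
Hk1, first window, chr10:62379909-62380158, minus strand: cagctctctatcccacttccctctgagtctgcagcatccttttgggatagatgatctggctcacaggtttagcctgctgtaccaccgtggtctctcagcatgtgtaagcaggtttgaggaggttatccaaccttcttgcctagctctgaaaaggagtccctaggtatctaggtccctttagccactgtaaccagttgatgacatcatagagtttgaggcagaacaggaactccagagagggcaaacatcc
Hk1, second window, chr10:62340422-62340671, minus strand: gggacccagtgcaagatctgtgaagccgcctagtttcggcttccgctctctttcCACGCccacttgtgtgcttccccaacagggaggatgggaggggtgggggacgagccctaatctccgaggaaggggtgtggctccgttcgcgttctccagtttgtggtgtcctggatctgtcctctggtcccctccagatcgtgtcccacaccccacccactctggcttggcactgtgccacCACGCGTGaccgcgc
Eno2, chr6:124769674-124769923, minus strand: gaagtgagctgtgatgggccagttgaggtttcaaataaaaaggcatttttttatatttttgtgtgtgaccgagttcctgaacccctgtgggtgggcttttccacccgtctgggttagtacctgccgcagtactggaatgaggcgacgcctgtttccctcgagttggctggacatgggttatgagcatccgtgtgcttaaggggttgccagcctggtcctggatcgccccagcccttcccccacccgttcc
Pdk1 and Aldoc each held 1 match, which began 78 and 50 bases before the start. Hk2 held 2 matches and Eno2 none. Hk1 has 2 windows, of which the first held no match and the second held 3, 2 of which overlap, so that Hk1 and Hk2 cannot be set apart by these letters. Pdk1 and Aldoc also have 2 windows each, of which the first is shown, and the other held no match for Pdk1 and a match for Aldoc. Among all 32851 mouse promoter windows of this length, 38.6% held at least 1 match. Of the 36 listed genes with a window, 26 held a match in the first window and 30 in any of their windows. The 38.6% is a share of windows and not of genes. Genes with several windows have more places for a match, and the share among first windows of all genes was not taken. The E-box CACGTG, the letters that MYC and USF proteins bind, contains ACGTG and was present in 6.02% of all windows and in the first window of 5 of the 36 genes. A match describes the letters only, and binding was not measured here.

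Glucose carriers differed from each other. Slc2a1 encodes GLUT1, the carrier of most proliferating cells. Its signals were 9.91, 9.65 and 10.03 in MEKi cells and 10.76, 10.31 and 10.42 in DMSO cells at 72 h, and 9.69, 9.77 and 9.62 in MEKi cells and 9.78, 9.86 and 9.59 in DMSO cells at 24 h. MEKi and DMSO cells overlapped at 24 h and were apart at 72 h, where all 3 MEKi arrays were below all 3 DMSO arrays. Slc2a1 was 1.55-fold lower with MEKi at 72 h (-0.63 ± 0.13, adjusted p = 0.0212) and did not pass at 24 h (-0.05 ± 0.08). Over time it did not pass with MEKi (0.17 ± 0.10) and rose with DMSO (0.75 ± 0.12, adjusted p = 0.00263). All 3 probe sets of Slc2a1 were lower at 72 h with MEKi, by 0.63 to 0.64, and each passed. The call of the brightest ended without MEKi replicate 1, MEKi replicate 2 or DMSO replicate 1 (adjusted p up to 0.0895). Slc2a3 encodes GLUT3, a carrier of high affinity. Its signals were 9.64, 9.75 and 9.88 in MEKi cells and 10.17, 10.10 and 10.09 in DMSO cells at 72 h, and 9.98, 9.98 and 10.06 in MEKi cells and 10.55, 10.55 and 10.58 in DMSO cells at 24 h. Here the drug was below DMSO on every array at both times, and the lowest group was MEKi at 72 h. Slc2a3 was lower with MEKi at 72 h (-0.36 ± 0.09, adjusted p = 0.0374) and at 24 h (-0.55 ± 0.06, adjusted p = 0.00299). The 72 h call ended without MEKi replicate 1 or 2 or without any of the 3 DMSO arrays (adjusted p up to 0.137), and the 24 h call held whichever array was left out. In contrast to Slc2a1, Slc2a3 fell over time with DMSO (-0.44 ± 0.07, adjusted p = 0.00187), and its change with MEKi did not pass (-0.25 ± 0.08, adjusted p = 0.0535).

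Slc2a8 encodes GLUT8, an intracellular carrier. Its signals were 9.05, 8.97 and 9.27 in MEKi cells and 9.32, 9.32 and 9.27 in DMSO cells at 72 h, and 8.45, 8.47 and 8.34 in MEKi cells and 8.51, 8.34 and 8.34 in DMSO cells at 24 h. The 72 h arrays were above the 24 h arrays with either treatment, and the increase was 0.68 ± 0.09, adjusted p = 0.000684 with MEKi and 0.91 ± 0.08, adjusted p = 0.000137 with DMSO. MEKi and DMSO did not differ beyond the threshold at 72 h (-0.21 ± 0.09) or at 24 h (0.02 ± 0.07). Slc2a4, the insulin-responsive GLUT4 of muscle and fat, was dimmer at 6.10 to 6.80 over the 12 arrays. It rose with DMSO over time (0.35 ± 0.10, adjusted p = 0.0274), a call that ended without DMSO replicate 1 or 2 at 72 h or DMSO replicate 1 or 3 at 24 h (adjusted p up to 0.0963), and the change with MEKi was 0.25 ± 0.11.

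Of the hexokinases, which phosphorylate glucose on entry, Hk1 was called lower with MEKi at both times and Hk2 at 72 h. Hk1 is the isoform of most tissues. Its signals were 8.68, 8.31 and 8.73 in MEKi cells and 9.79, 9.40 and 9.22 in DMSO cells at 72 h, and 8.79, 8.60 and 9.04 in MEKi cells and 9.67, 9.73 and 9.66 in DMSO cells at 24 h. Every MEKi array was below every DMSO array at the same time. Hk1 was 1.86-fold lower with MEKi at 72 h (-0.90 ± 0.16, adjusted p = 0.00872) and 1.84-fold lower at 24 h (-0.88 ± 0.11, adjusted p = 0.00425). Both probe sets of Hk1 gave the drop at 72 h (-0.90 ± 0.16 and -0.94 ± 0.15). The change of Hk1 over time did not pass with MEKi (-0.24 ± 0.14) or with DMSO (-0.22 ± 0.13), and its other probe set gave values of the opposite sign (0.06 ± 0.11 with MEKi and 0.01 ± 0.14 with DMSO). The MEKi effect on Hk1 at 72 h minus that at 24 h was -0.02 ± 0.21 (adjusted p = 0.98). Hk2 is the isoform of muscle that many tumors gain and is a known target of hypoxia-inducible factors. Its signals were 10.39, 9.93 and 10.60 in MEKi cells and 11.59, 11.15 and 11.33 in DMSO cells at 72 h, and 10.57, 10.73 and 10.66 in MEKi cells and 10.62, 10.69 and 10.66 in DMSO cells at 24 h. At 24 h the 2 treatments overlapped, and at 72 h all MEKi arrays were below all DMSO arrays. Hk2 was 2.07-fold lower with MEKi at 72 h (-1.05 ± 0.17, adjusted p = 0.00614) and did not differ beyond the threshold at 24 h (0.00 ± 0.07, adjusted p = 0.986). It rose over time with DMSO (0.70 ± 0.11, adjusted p = 0.00196) and did not pass with MEKi (-0.35 ± 0.15, adjusted p = 0.118). Its MEKi effects at the 2 times differed (-1.05 ± 0.20, adjusted p = 0.014).

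The difference between Hk2 and Hk1 within each array was taken to see whether the isoforms shifted unequally. Different probe sets have different brightness, so only shifts between groups can be read. At 72 h the within-array difference was 1.71, 1.62 and 1.87 with MEKi and 1.80, 1.75 and 2.11 with DMSO, which overlapped, with a shift of -0.15 (exact two-sided permutation p = 0.4, adjusted over the 8 pair tests 0.457). Within each replicate number the MEKi array was below the DMSO array, with differences of -0.09, -0.13 and -0.24, and the exact sign-flip test of these 3 pairs gave p = 0.25, the smallest it can give. At 24 h it was 1.78, 2.13 and 1.62 with MEKi and 0.95, 0.96 and 1.00 with DMSO, with a shift of 0.87 and no overlap (exact permutation p = 0.1, adjusted 0.133). An exact test of 3 against 3 arrays cannot go below p = 0.1. Over time the shift was -0.11 with MEKi (exact permutation p = 0.7, adjusted 0.7) and 0.92 with DMSO (exact permutation p = 0.1, adjusted 0.133), where the groups were apart. DMSO cells at 24 h stood below the other 3 groups on all 3 arrays.

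**Figure D2:**
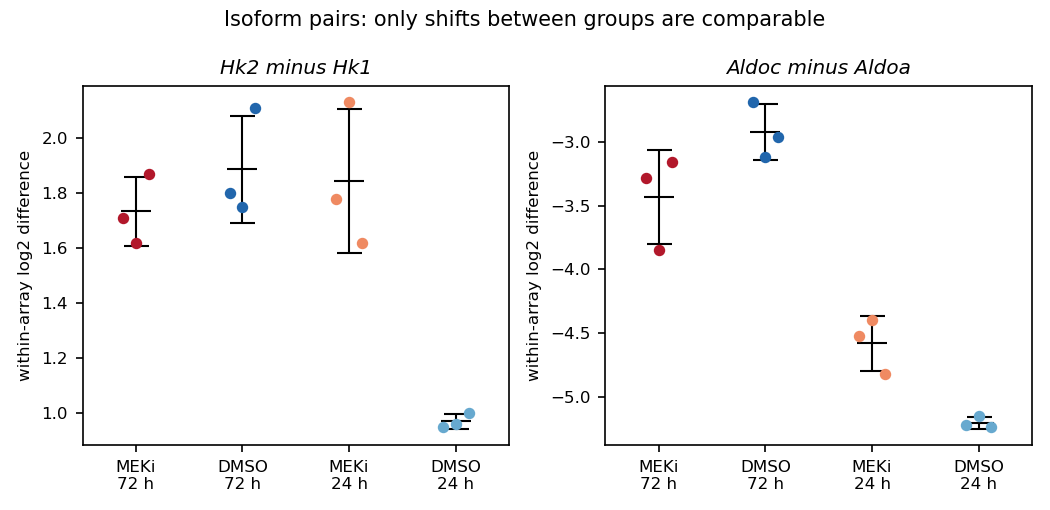
Within-array log2 difference of Hk2 minus Hk1 (left) and of Aldoc minus Aldoa (right) in each array (points), with the mean and SD of 3 arrays (lines) by group. For Hk2 minus Hk1, DMSO cells at 24 h (0.95 to 1.00) lay below the other 3 groups, whereas for Aldoc minus Aldoa each shift was without overlap: -0.51 with MEKi at 72 h, 0.62 with MEKi at 24 h, 1.15 over time with MEKi and 2.28 over time with DMSO.

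Phosphofructokinase, the main control point of the pathway, is built from the subunits Pfkl, Pfkm and Pfkp. All 3 rose over time with DMSO. For Pfkl, the liver-type subunit, signals were 10.33, 9.71 and 10.52 in MEKi cells and 11.07, 10.73 and 10.84 in DMSO cells at 72 h, and 9.88, 9.75 and 9.84 in MEKi cells and 9.86, 9.60 and 9.70 in DMSO cells at 24 h. With DMSO the rise of Pfkl was 2.23-fold (1.16 ± 0.11, adjusted p = 0.000195), and the change with MEKi did not pass (0.36 ± 0.17). At 72 h the MEKi arrays were below the DMSO arrays without overlap, but the difference of Pfkl missed the threshold (-0.69 ± 0.18, adjusted p = 0.0521) and passed with the replicate block (adjusted p = 0.0166). A second bright probe set passed at 72 h without the block (-0.65 ± 0.15, adjusted p = 0.0323), and a dim one gave 0.06 ± 0.08. For Pfkp, the platelet-type subunit, signals were 10.54, 10.34 and 10.79 in MEKi cells and 11.37, 10.79 and 11.08 in DMSO cells at 72 h, and 10.31, 10.29 and 10.28 in MEKi cells and 10.23, 10.06 and 9.99 in DMSO cells at 24 h. Pfkp rose with DMSO (0.99 ± 0.14, adjusted p = 0.0012) and did not pass with MEKi (0.26 ± 0.11). At 72 h Pfkp missed the threshold with MEKi (-0.52 ± 0.15, adjusted p = 0.0762) and passed with the block (adjusted p = 0.0287). The other bright probe set of Pfkp rose with DMSO too (1.23 ± 0.13) and passed with MEKi at 72 h (-0.70 ± 0.16, adjusted p = 0.0317). It also passed over time with MEKi (0.40 ± 0.12, adjusted p = 0.0334) and for the difference of the MEKi effects (-0.82 ± 0.19, adjusted p = 0.0365). A dim probe set of Pfkp, at a mean of 4.49, gave -0.26 ± 0.10 over time with DMSO and did not pass. For Pfkm, the muscle-type subunit, signals were 9.18, 9.11 and 9.28 in MEKi cells and 9.48, 9.33 and 9.27 in DMSO cells at 72 h, and 8.73, 8.59 and 8.88 in MEKi cells and 8.85, 8.64 and 8.80 in DMSO cells at 24 h. The rise of Pfkm passed with both treatments, at 0.46 ± 0.09, adjusted p = 0.00583 with MEKi and 0.60 ± 0.09, adjusted p = 0.00156 with DMSO, and the drug effect did not pass at 72 h (-0.17 ± 0.09) or 24 h (-0.03 ± 0.09).

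Enzymes that set the level of fructose 2,6-bisphosphate, the strongest activator of phosphofructokinase, moved in different directions. Pfkfb2, a bifunctional kinase and phosphatase best known from heart, had signals of 7.29, 7.32 and 6.98 in MEKi cells and 7.02, 6.86 and 7.06 in DMSO cells at 72 h, and 7.44, 7.33 and 7.40 in MEKi cells and 6.79, 6.92 and 6.90 in DMSO cells at 24 h. At 24 h all MEKi arrays were above all DMSO arrays (0.52 ± 0.07, adjusted p = 0.00503). At 72 h they overlapped (0.22 ± 0.11, adjusted p = 0.313). All 4 probe sets of Pfkfb2 gave a higher signal at 72 h too, and 2 dim ones, at means of 5.0 and 4.69, passed there (0.78 ± 0.13, adjusted p = 0.00738, and 0.39 ± 0.09, adjusted p = 0.025). Pfkfb3, the isoform with the highest kinase activity, had signals of 5.37, 5.25 and 5.38 in MEKi cells and 5.61, 5.54 and 5.97 in DMSO cells at 72 h, and 5.96, 6.04 and 6.43 in MEKi cells and 6.45, 6.48 and 6.56 in DMSO cells at 24 h. It fell over time with both treatments, by -0.81 ± 0.12, adjusted p = 0.000998 with MEKi and -0.79 ± 0.11, adjusted p = 0.00131 with DMSO. A second and dimmer probe set of Pfkfb3, with a mean of 4.69, gave 0.13 ± 0.09 and 0.07 ± 0.07 and did not pass. Pfkfb4 rose over time with MEKi (0.33 ± 0.10, adjusted p = 0.0422) and with DMSO (0.39 ± 0.09, adjusted p = 0.0127), but the MEKi call ended without 5 of the 6 arrays, all but MEKi replicate 2 at 24 h (adjusted p up to 0.145), and with the replicate block (adjusted p = 0.0549), and the DMSO call ended without DMSO replicate 3 at 24 h (adjusted p = 0.0501). Tigar, a phosphatase that removes fructose 2,6-bisphosphate and was found as a target of p53, had signals of 8.05, 7.95 and 7.90 in MEKi cells and 7.73, 7.76 and 7.76 in DMSO cells at 72 h, and 8.31, 8.36 and 8.40 in MEKi cells and 8.48, 8.46 and 8.49 in DMSO cells at 24 h. It fell over time with MEKi (-0.39 ± 0.08, adjusted p = 0.00464) and with DMSO (-0.73 ± 0.07, adjusted p = 0.000181), with all 72 h arrays below all 24 h arrays. The other 2 probe sets of Tigar did not pass over time with DMSO (-0.16 ± 0.09 and 0.15 ± 0.12), so that the fall rested on 1 probe set.

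Aldolase splits fructose 1,6-bisphosphate. Aldoa is the major isoform and Aldoc the isoform of brain. Aldoa was near the top of the scale, at 13.84, 13.76 and 13.85 in MEKi cells and 13.86, 13.74 and 13.93 in DMSO cells at 72 h, and 13.67, 13.76 and 13.60 in MEKi cells and 13.45, 13.44 and 13.44 in DMSO cells at 24 h. It rose over time with DMSO (0.40 ± 0.08, adjusted p = 0.00494) and did not pass with MEKi over time (0.14 ± 0.08), with MEKi at 72 h (-0.03 ± 0.08) or with MEKi at 24 h (0.23 ± 0.06, adjusted p = 0.0629). All 5 probe sets of Aldoa were higher with MEKi at 24 h, by 0.18 to 0.28, and 1 passed (0.25 ± 0.06, adjusted p = 0.04). The brightest passed there in 4 of 7 other settings of the processing. This brightest probe set is of a type that the manufacturer marks for possible cross-hybridization, and its values lie close to the highest on the arrays. Aldoc had the largest change over time of the 34 genes in DMSO cells. Its signals were 10.56, 9.91 and 10.69 in MEKi cells and 11.17, 10.62 and 10.97 in DMSO cells at 72 h, and 9.15, 9.36 and 8.78 in MEKi cells and 8.23, 8.29 and 8.20 in DMSO cells at 24 h. The 4 groups stood in the order DMSO at 24 h, MEKi at 24 h, MEKi at 72 h and DMSO at 72 h, and the last 2 overlapped. Over time Aldoc rose 2.45-fold with MEKi (1.29 ± 0.20, adjusted p = 0.00144) and 6.41-fold with DMSO (2.68 ± 0.13, adjusted p = 1.98e-05). A second and dimmer probe set of Aldoc, at a mean of 5.09, rose with DMSO (1.08 ± 0.13, adjusted p = 0.000671) and did not pass over time with MEKi (0.24 ± 0.13, adjusted p = 0.215) or with MEKi at 24 h (0.41 ± 0.11, adjusted p = 0.0566). The MEKi effect did not pass at 72 h (-0.53 ± 0.20, adjusted p = 0.161), passed there with the replicate block (adjusted p = 0.0184), and was an increase at 24 h (0.86 ± 0.13, adjusted p = 0.00865). The 2 effects differed (-1.39 ± 0.27, adjusted p = 0.0146).

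Within each array, the difference Aldoc minus Aldoa was -3.28, -3.85 and -3.16 with MEKi and -2.69, -3.12 and -2.96 with DMSO at 72 h, and -4.52, -4.40 and -4.82 with MEKi and -5.22, -5.15 and -5.24 with DMSO at 24 h. The shift was -0.51 with MEKi at 72 h and 0.62 with MEKi at 24 h, and over time it was 1.15 with MEKi and 2.28 with DMSO. In each of these the groups were apart, and each had the smallest p that 3 against 3 arrays allow (exact permutation p = 0.1, adjusted 0.133).

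Apart from the dimmer enolases, the tested enzymes from triose phosphates to pyruvate were bright. Among all of them only Eno2 reached an absolute difference of 0.5. Tpi1, triose phosphate isomerase, rose over time with DMSO (0.45 ± 0.07, adjusted p = 0.00165) and did not pass with MEKi (0.16 ± 0.08). Pgk1 and Pgam1, the next kinase and mutase, rose with DMSO by 0.25 ± 0.07 and 0.24 ± 0.07 (adjusted p = 0.0236 and 0.035), but both calls ended without DMSO replicate 1 at 72 h or without any 1 of the DMSO arrays of 24 h (adjusted p up to 0.0784 and 0.108), and with the replicate block (adjusted p = 0.054 and 0.0667). With MEKi their changes over time were 0.06 ± 0.07 and -0.06 ± 0.07. Gapdh, read from 3 control probe sets with no test, lay between 14.17 and 14.35 with MEKi and between 14.18 and 14.38 with DMSO at 72 h, and between 14.13 and 14.26 with MEKi and between 14.10 and 14.24 with DMSO at 24 h. These Gapdh values lie at the upper end of the scale. Pkm, pyruvate kinase, rose over time with DMSO (0.47 ± 0.07, adjusted p = 0.00161) and did not pass with MEKi (0.07 ± 0.08). The difference between these changes of Pkm passed narrowly (-0.40 ± 0.10, adjusted p = 0.0475) and ended without any 1 of 10 of the 12 arrays, all but DMSO replicate 2 and MEKi replicate 3 of 72 h (adjusted p up to 0.129).

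Eno2, the neuron-specific enolase, was the single gene of the 34 that was called higher with MEKi at 72 h. Its signals were 8.09, 8.33 and 8.01 in MEKi cells and 7.03, 6.52 and 6.84 in DMSO cells at 72 h, and 6.45, 6.06 and 6.26 in MEKi cells and 6.41, 6.26 and 6.43 in DMSO cells at 24 h. MEKi cells at 72 h stood above all other arrays, and the 24 h groups overlapped. Eno2 was 2.54-fold higher with MEKi at 72 h (1.35 ± 0.14, adjusted p = 0.000957), whichever array was left out, and did not pass at 24 h (-0.11 ± 0.10, adjusted p = 0.591). Over time it rose 3.70-fold with MEKi (1.89 ± 0.12, adjusted p = 1.52e-05) and 1.35-fold with DMSO (0.43 ± 0.12, adjusted p = 0.0339). The rise with DMSO ended without any 1 of the arrays but DMSO replicate 2 of 72 h (adjusted p up to 0.112). Its MEKi effects differed by 1.46 ± 0.19, adjusted p = 0.00189. Eno1, the enolase of most tissues, was not measured here, so the shift between the 2 enolases could not be taken. Eno3, the muscle enolase, was higher with MEKi at 24 h (0.36 ± 0.07, adjusted p = 0.0189), a call that ended without MEKi replicate 1 or 2 or DMSO replicate 1 or 2 (adjusted p up to 0.078), and was at 0.11 ± 0.13 at 72 h.

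**Figure D3:**
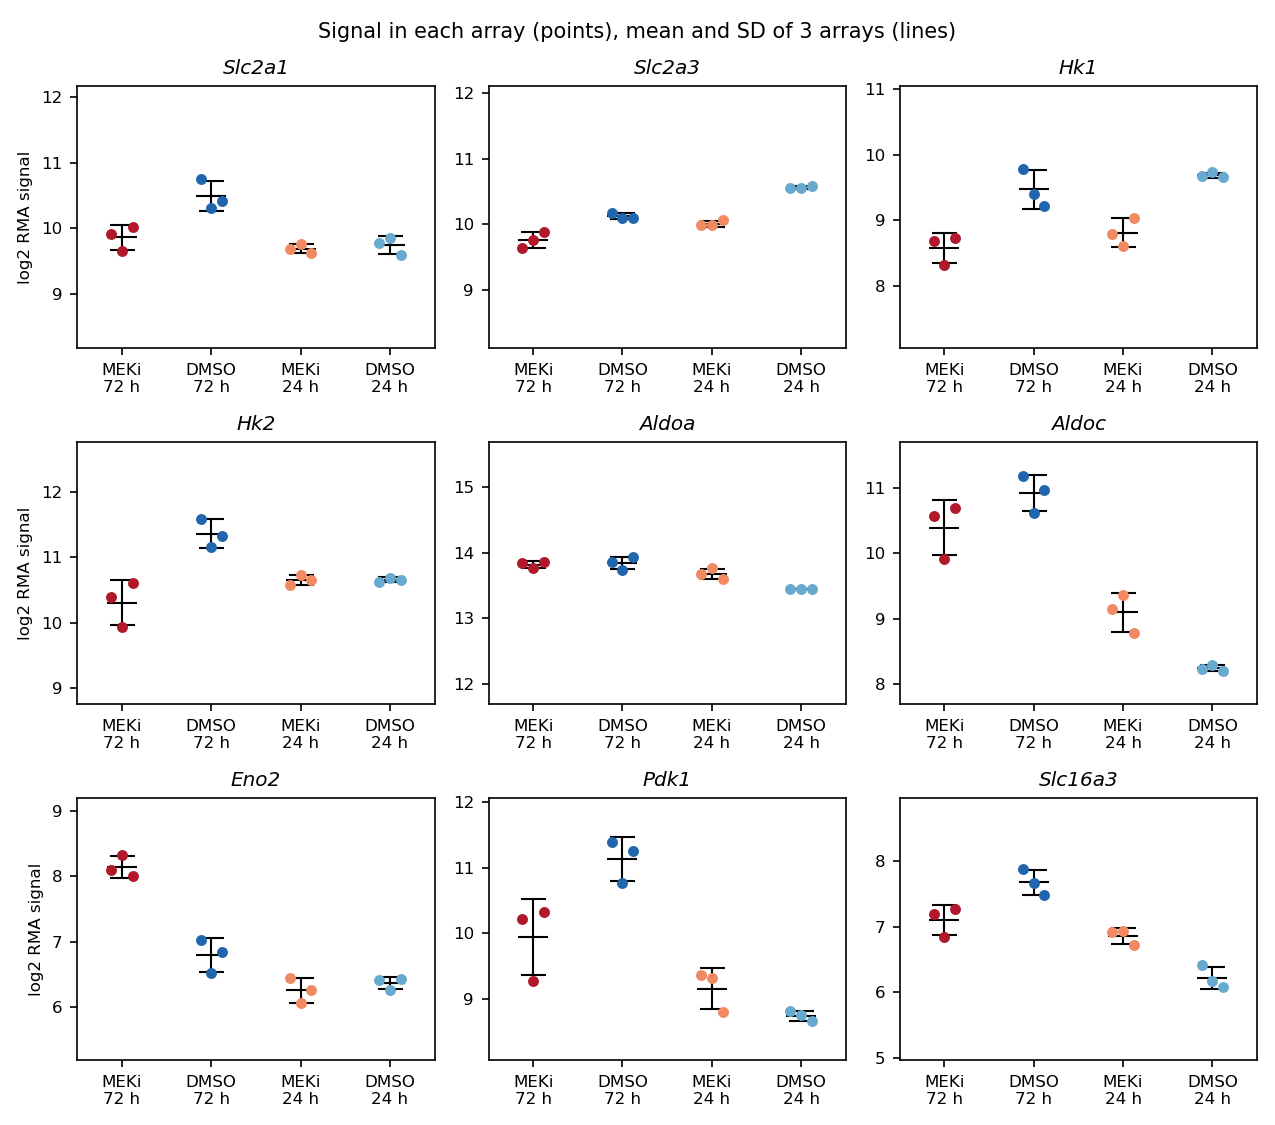
Log2 RMA signal (vertical axis, each panel spans the same range) of 9 genes in each array (points), with the mean and SD of 3 arrays (lines), by group. Hk1 and Slc2a3 were lower with MEKi at both times, Slc2a1, Hk2, Pdk1 and Slc16a3 at 72 h, and Eno2 was higher with MEKi at 72 h, at 8.01 to 8.33 against 6.52 to 7.03 with DMSO.

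At the fate of pyruvate, Pdk1 was lower with MEKi at 72 h and rose over time with DMSO. This kinase, a known target of hypoxia-inducible factors that switches the complex off, had signals of 10.22, 9.27 and 10.32 in MEKi cells and 11.39, 10.76 and 11.25 in DMSO cells at 72 h, and 9.36, 9.31 and 8.79 in MEKi cells and 8.81, 8.75 and 8.66 in DMSO cells at 24 h. At 72 h all MEKi arrays were below all DMSO arrays, with MEKi replicate 2 far below the other 2 MEKi arrays. Pdk1 was 2.29-fold lower with MEKi at 72 h (-1.20 ± 0.26, adjusted p = 0.0219), and the call ended without DMSO replicate 1 or 3 (adjusted p up to 0.0827). Of the other probe sets of Pdk1, both bright ones passed as well (-1.35 ± 0.23 and -1.21 ± 0.24) and the dim one, at a mean of 3.24, did not (-0.06 ± 0.12). At 24 h the difference of Pdk1 had the other sign and did not pass (0.41 ± 0.14, adjusted p = 0.118), whereas both other bright probe sets were higher with MEKi and passed (0.35 ± 0.06, adjusted p = 0.0157, and 0.49 ± 0.10, adjusted p = 0.0214). With DMSO, Pdk1 rose 5.25-fold over time (2.39 ± 0.15, adjusted p = 5.4e-05). With MEKi the increase of 1.72-fold was at the threshold (0.78 ± 0.26, adjusted p = 0.0496), the 2 groups overlapped, and the call ended without any 1 of 5 of the 6 arrays, all but MEKi replicate 2 of 72 h (adjusted p up to 0.166), and with the replicate block (adjusted p = 0.0622). The other bright probe sets of Pdk1 did not pass over time with MEKi (0.49 ± 0.22 and 0.01 ± 0.23). For Pdk1 the MEKi effects at the 2 times differed by -1.61 ± 0.34, adjusted p = 0.0212, a call that ended without any 1 of 5 arrays, which were DMSO replicates 1 and 3 of 72 h, MEKi replicates 1 and 2 of 24 h and DMSO replicate 3 of 24 h (adjusted p up to 0.0619).

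Pdk3, a further kinase of the complex, had signals of 9.87, 9.74 and 10.07 in MEKi cells and 10.61, 10.21 and 10.42 in DMSO cells at 72 h, and 9.47, 9.57 and 9.66 in MEKi cells and 9.63, 9.68 and 9.73 in DMSO cells at 24 h. The groups were apart at 72 h and overlapped at 24 h. Pdk3 was lower with MEKi at 72 h (-0.52 ± 0.12, adjusted p = 0.0316), a call that ended without MEKi replicate 1 or 2 or DMSO replicate 1 or 3 (adjusted p up to 0.134). Over time Pdk3 rose with MEKi (0.33 ± 0.10, adjusted p = 0.0369), where the call ended without any 1 of 4 arrays, MEKi replicates 1 and 3 of 72 h and 1 and 2 of 24 h (adjusted p up to 0.125). With DMSO it rose by 0.73 ± 0.10, adjusted p = 0.00121. The dim Pdk2 rose with DMSO (0.35 ± 0.07, adjusted p = 0.00782), between values of 3.39 and 3.97 over all arrays, and the dim Pdk4 passed in no comparison. Pdha1, the catalytic subunit that these kinases phosphorylate, fell over time with MEKi (-0.42 ± 0.08, adjusted p = 0.00398) and with DMSO (-0.24 ± 0.07, adjusted p = 0.0256), and the DMSO call ended without DMSO replicate 1 or 2 of 72 h or any 1 of the DMSO arrays of 24 h (adjusted p up to 0.0831), and with the replicate block (adjusted p = 0.0589).

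Signals of the lactate dehydrogenase subunits changed little, and those of Ldha lay near the top of the scale, at a mean of 13.51. Ldha, which favours lactate formation, passed in no comparison. Its difference with MEKi at 72 h was -0.31 ± 0.09, adjusted p = 0.0879, and its MEKi effect at 72 h minus that at 24 h was -0.35 ± 0.11, adjusted p = 0.108. Ldhb, the subunit of oxidative tissues, rose with DMSO over time (0.34 ± 0.08, adjusted p = 0.0142), where the call ended without DMSO replicate 1 of 72 h or DMSO replicate 3 of 24 h (adjusted p up to 0.0611). Its change over time with MEKi was -0.17 ± 0.09, and the difference between the MEKi effects passed (-0.51 ± 0.12, adjusted p = 0.038) but ended without any 1 of 9 of the 12 arrays (adjusted p up to 0.106), all but DMSO replicate 2 of 72 h, MEKi replicate 1 of 72 h and MEKi replicate 3 of 24 h. The other probe sets of Ldhb did not pass for that difference (-0.42 ± 0.11, -0.38 ± 0.12 and -0.43 ± 0.15, adjusted p = 0.0625, 0.104 and 0.154). Over time with DMSO the first of these passed (0.37 ± 0.08, adjusted p = 0.00833) and the rest did not (adjusted p = 0.0556 and 0.148).

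Over time with DMSO, the lactate carrier Slc16a3 rose and the carrier Slc16a1 fell. Slc16a3 encodes MCT4, the exporter of highly glycolytic cells. Its signals were 7.19, 6.84 and 7.28 in MEKi cells and 7.88, 7.67 and 7.49 in DMSO cells at 72 h, and 6.92, 6.93 and 6.72 in MEKi cells and 6.41, 6.18 and 6.08 in DMSO cells at 24 h. The drug arrays were below the DMSO arrays at 72 h and above them at 24 h, with no overlap at either time. Slc16a3 was 1.49-fold lower with MEKi at 72 h (-0.58 ± 0.13, adjusted p = 0.0313) and 1.55-fold higher with MEKi at 24 h (0.63 ± 0.10, adjusted p = 0.00946), and the difference of these effects passed whichever array was left out (-1.21 ± 0.18, adjusted p = 0.00423). The 72 h call itself ended without MEKi replicate 1 or 2 or DMSO replicate 1 or 2 (adjusted p up to 0.114). Over time Slc16a3 did not pass with MEKi (0.25 ± 0.12) and rose 2.74-fold with DMSO (1.46 ± 0.12, adjusted p = 0.000132). Slc16a1 encodes MCT1, which carries lactate in both directions. Its signals were 11.36, 11.42 and 11.25 in MEKi cells and 11.53, 11.49 and 11.44 in DMSO cells at 72 h, and 12.04, 12.04 and 12.06 in MEKi cells and 12.12, 12.13 and 12.09 in DMSO cells at 24 h. All 72 h arrays were below all 24 h arrays, with a fall of -0.70 ± 0.08, adjusted p = 0.000177 with MEKi and -0.63 ± 0.07, adjusted p = 0.00037 with DMSO. The drug effect on Slc16a1 did not pass at 72 h (-0.14 ± 0.08) or at 24 h (-0.07 ± 0.06).

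**Figure D4:**
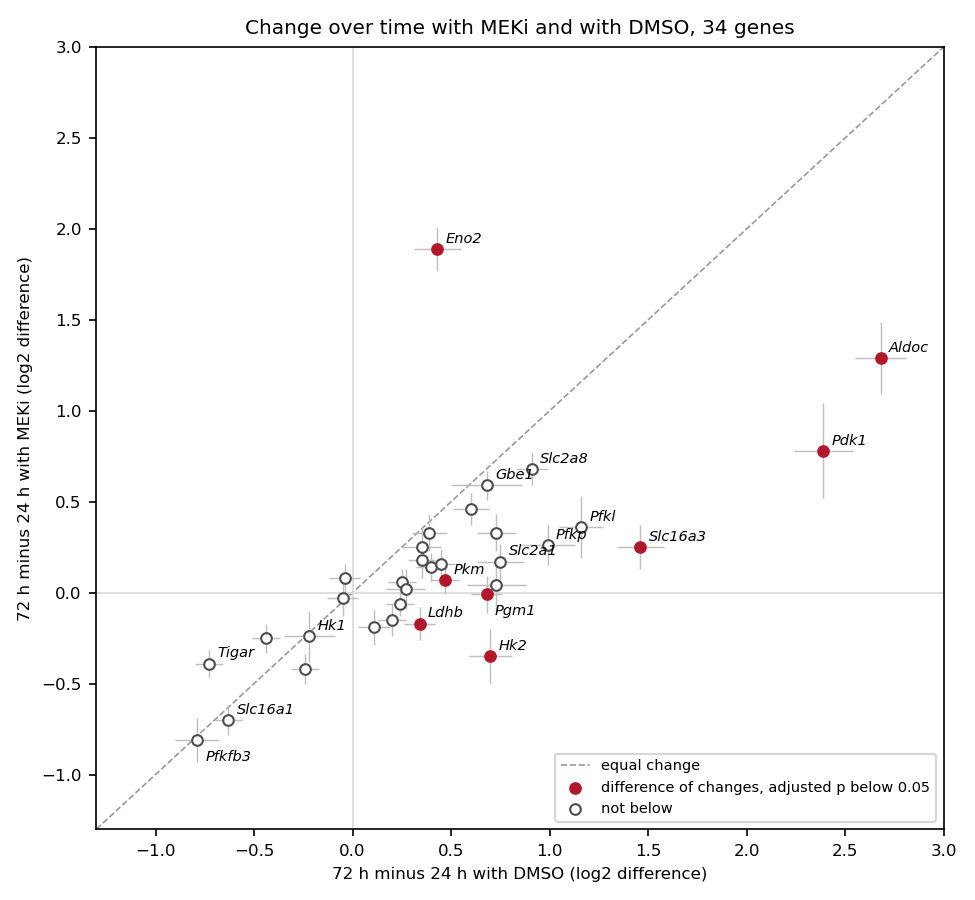
Change from 24 h to 72 h with MEKi (vertical axis, log2) against that with DMSO (horizontal axis, log2) for the 34 genes, with moderated SE (bars, 3 arrays per group) and the line of equal change (dashed). Filled points are the 8 genes whose 2 changes differed at an adjusted p below 0.05, with Eno2 above the line and Pdk1, Aldoc, Slc16a3, Hk2, Pgm1, Ldhb and Pkm below it.

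Pgm1, Gys1 and Gbe1 of glycogen synthesis rose over time with DMSO as well. Pgm1, phosphoglucomutase, which links glycolysis to glycogen, had signals of 10.64, 10.44 and 10.85 in MEKi cells and 11.30, 11.11 and 11.23 in DMSO cells at 72 h, and 10.62, 10.65 and 10.69 in MEKi cells and 10.52, 10.58 and 10.49 in DMSO cells at 24 h. At 72 h the MEKi arrays were below the DMSO arrays, and MEKi cells at 72 h overlapped both 24 h groups. Pgm1 was lower with MEKi at 72 h (-0.57 ± 0.11, adjusted p = 0.0146), a call that ended without MEKi replicate 1 or 2 or DMSO replicate 1 (adjusted p up to 0.0646). Over time it did not pass with MEKi (-0.01 ± 0.10) and rose with DMSO (0.68 ± 0.08, adjusted p = 0.000443), and the difference of the changes passed (-0.69 ± 0.13, adjusted p = 0.0132). Gys1, the muscle-type glycogen synthase, had signals of 8.79, 8.39 and 9.0 in MEKi cells and 9.71, 9.13 and 9.14 in DMSO cells at 72 h, and 8.59, 8.72 and 8.76 in MEKi cells and 8.71, 8.48 and 8.61 in DMSO cells at 24 h. It rose with DMSO (0.73 ± 0.15, adjusted p = 0.00798) and did not pass with MEKi (0.04 ± 0.14). At 72 h Gys1 missed the threshold with MEKi (-0.60 ± 0.18, adjusted p = 0.0859) and passed with the block (adjusted p = 0.04). A second probe set of Gys1, at a mean of 7.23, passed at 72 h without the block (-0.79 ± 0.19, adjusted p = 0.0342). For the difference of the MEKi effects the second passed (-0.96 ± 0.23, adjusted p = 0.0374) and the brightest did not (-0.69 ± 0.23, adjusted p = 0.132). Gbe1, the branching enzyme, had signals of 10.25, 10.07 and 10.12 in MEKi cells and 10.58, 9.75 and 10.09 in DMSO cells at 72 h, and 9.50, 9.62 and 9.55 in MEKi cells and 9.42, 9.50 and 9.47 in DMSO cells at 24 h. It rose with MEKi (0.59 ± 0.08, adjusted p = 0.000613) and with DMSO (0.68 ± 0.18, adjusted p = 0.0213), where the call ended without DMSO replicate 3 of 72 h or any 1 of the DMSO arrays of 24 h (adjusted p up to 0.063). Pgm2, a further phosphoglucomutase, stayed between 8.92 and 9.11 on all 12 arrays.

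Neighbouring pathways were read from lists of genes named for their function. Of 22 measured isozymes and carriers outside the 34 genes, none passed with MEKi at 72 h or at 24 h. Over time 6 of these 22 rose and 0 fell with MEKi, and 10 rose and 0 fell with DMSO, against 13.5% of all genes higher and 16% lower with MEKi, and 14.2% higher and 16.9% lower with DMSO. With DMSO these included Slc2a6, a further sugar carrier (0.88 ± 0.13), and Bsg, the membrane partner of the lactate carriers (0.60 ± 0.08). With DMSO 17 of the 22 differences were positive and 5 negative. Some dimmer genes of the 22 had higher means at 72 h too, such as Gapdhs (6.59 against 6.05 at 24 h) and Pgam2 (6.81 against 6.3). The part of the narrower range of signals at 72 h in these changes was not tested. Of 9 pentose phosphate genes, 1 was higher with MEKi at 72 h, Taldo1, the transaldolase of the pathway (0.78 ± 0.11, adjusted p = 0.00316), and 0 were lower, against 4.03% and 5.14% of all genes. At 24 h 0 were higher and 2 were lower, against 5.01% and 5.86% of all genes, and 8 of the 9 differences were negative, with a median of -0.16. Between the 2 times the MEKi effect differed, with a positive sign, for Taldo1 (1.07 ± 0.14, adjusted p = 0.00189) and for Pgd, 6-phosphogluconate dehydrogenase (0.87 ± 0.17, adjusted p = 0.0154). With MEKi at 24 h Pgd was lower (-0.34 ± 0.07, adjusted p = 0.022), and the difference of Taldo1 was negative and did not pass (-0.29 ± 0.08, adjusted p = 0.0561).

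Of 15 genes of the serine, hexosamine and glycerol branches, which draw on glycolytic intermediates, 6 were lower and 0 higher with MEKi at 72 h, and 8 were lower and 1 higher with MEKi at 24 h. Over all genes, 5.14% were called lower and 4.03% higher with MEKi at 72 h, and 5.86% lower and 5.01% higher at 24 h, which holds for the next lists as well. At 72 h the lowest were Pck2, the mitochondrial PEP carboxykinase (-0.78 ± 0.13, adjusted p = 0.00722), and Shmt1 and Shmt2, which make one-carbon units from serine (-0.73 ± 0.10 and -0.69 ± 0.11). At 24 h Shmt1 was lowest (-0.54 ± 0.10, adjusted p = 0.018), followed by Psat1 of serine synthesis (-0.47 ± 0.07, adjusted p = 0.00658). The call of Shmt1 at 24 h ended in 5 of the 6 fits that left out 1 array (adjusted p up to 0.0779). Of 17 genes of glycogen and UDP-glucose metabolism, 1 was higher and 1 lower with MEKi at 72 h (5.88% each), and 4 were higher (23.5%) and 0 lower at 24 h. Pygl, a glycogen phosphorylase, was 1.10 ± 0.23 at 24 h (adjusted p = 0.0242) with MEKi, which ended in 4 of the 6 fits that left out 1 array (adjusted p up to 0.0972), and Pygl rose over time by 0.79 ± 0.23 with MEKi and 2.50 ± 0.32 with DMSO. Of 19 genes of pyruvate entry to mitochondria, 1 was higher and 1 lower with MEKi at 72 h (5.26% each), and 3 were higher (15.8%) and 0 lower at 24 h, among them Mpc1, a subunit of the pyruvate carrier (0.42 ± 0.06, adjusted p = 0.00903).

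Of 25 measured regulators of glycolytic genes, 3 were lower (12%) and 1 higher (4%) with MEKi at 72 h, and the counts were the same at 24 h. Over all genes 5.14% were lower and 4.03% higher at 72 h, and 5.86% and 5.01% at 24 h. Over time 7 fell and 3 rose with MEKi (28% and 12%, against 16% and 13.5% of all genes). With DMSO 8 fell and 5 rose (32% and 20%, against 16.9% and 14.2%). Among them Myc was lower with MEKi at 72 h (-1.52 ± 0.23, adjusted p = 0.0047) and at 24 h (-0.84 ± 0.14, adjusted p = 0.0119), where the call ended in 1 of the fits that left out 1 array (adjusted p = 0.0563). Hif1a passed in none of the comparisons (0.02 ± 0.09 with MEKi at 72 h and 0.26 ± 0.07 at 24 h, -0.14 ± 0.09 over time with MEKi and 0.10 ± 0.08 with DMSO). Txnip, an arrestin-like protein that limits glucose uptake, rose over time with MEKi (1.05 ± 0.15, adjusted p = 0.000815) and with DMSO (1.81 ± 0.12, adjusted p = 6.59e-05). Of 17 known targets of hypoxia-inducible factors outside glycolysis, 7 were lower and 0 higher with MEKi at 72 h, against 5.14% and 4.03% of all genes, with a median of -0.69, and all 17 differences were negative. At 24 h 3 were higher and 1 lower, against 5.01% and 5.86% of all genes, with a median of 0.08. Over time 6 rose and 2 fell with MEKi, against 13.5% and 16% of all genes, with a median of 0.23. With DMSO 14 rose and 0 fell, against 14.2% and 16.9% of all genes, with a median of 1.11. Vegfa, the angiogenic factor of this list, rose over time with MEKi (1.10 ± 0.10, adjusted p = 7.37e-05) and with DMSO (1.55 ± 0.15, adjusted p = 0.000228). Its difference with MEKi at 72 h was -0.65 ± 0.16, adjusted p = 0.0405, a call that ended in 4 of the 6 fits that left out 1 array (adjusted p up to 0.156). The MEKi effect at 72 h minus that at 24 h was negative for all 17, and passed for 6, against 2.10% of all genes, with a median of -0.65 against 0.00 over all genes. Oxygen and glucose in the cultures were not measured in these samples, and no part of any regulator in the changes of the 34 genes was tested.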

How the data were processed

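RNA of 12 samples of B16-OVA cells was hybridized to Affymetrix mouse arrays, 1 array per sample. The values deposited by the authors are log2 signals after RMA normalization, rounded to 2 decimals. The study's methods name RMA within the Chipster software, whose version is not given in the sources used here. RMA sets the arrays' distributions alike, so that a shift of all genes cannot be seen. Arrays hold no read depth. Groups were taken from the sample labels, and values were used as deposited, with no filter.

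Of 45101 probe sets, 64 controls were left out of the tests, and 45037 were tested. The annotation paired 34945 of these with 1 gene, 932 with several and 9160 with none. Each pair of groups was fitted with limma (version 3.58.1, R 4.3.3) on its own 6 arrays without covariates, with moderated two-sided tests and Benjamini-Hochberg adjustment over all 45037 probe sets at a threshold of 0.05. Whether the MEKi effect differed between 72 h and 24 h was tested as a contrast in 1 fit of all 4 groups. Differences are MEKi minus DMSO, or 72 h minus 24 h, on the log2 scale with the moderated SE. The fits were tested on simulated data. Isoform pairs were compared by exact permutation tests over 8 comparisons. The Eno2 and Eno1 pair could not be run. Genes were described by counts and medians, without tests of lists.

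Arrays of the same replicate number deviated together from their group means at 72 h (r = 0.189, 0.163 and 0.13 for the 3 pairs, over all probe sets), which was taken as pairing there. At 24 h the values were 0.0729, 0.125 and 0.151. The labels do not say what a number marks. The main fits did not use the replicate number, and the replicate block did. The alternatives were the replicate block, a fit of all 12 arrays, brighter probe sets, median centring, repeated quantile normalization, the mean of a gene's probe sets, a trended and robust prior, and leaving out each array. Every array's value is given for the isoform pairs and for genes that passed with an absolute difference of at least 0.5, and at most 5 genes were named of each neighbouring list. The genes and lists were chosen with earlier results of these data known.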

Additional observations from a re-analysis of the deposited data

Results flagged for a closer look

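For 8 of the 34 genes, the effect of MEKi at 72 h differed from its effect at 24 h by the direct test of the difference (limma contrast on 12 arrays, adjusted p below 0.05). The log2 difference of the effects was 1.46 for Eno2 (adjusted p = 0.00189), -1.21 for Slc16a3 (0.00423), -0.69 for Pgm1 (0.0132), -1.05 for Hk2 (0.014), -1.39 for Aldoc (0.0146), -1.61 for Pdk1 (0.0212), -0.51 for Ldhb (0.038) and -0.40 for Pkm (0.0475). Those of Pdk1, Ldhb and Pkm ended without 5, 9 and 10 of the 12 arrays, each left out alone, and the other 5 held in all 12 such fits. Groups of 3 arrays are too small for a test of single outlying values.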

How the results depend on the processing

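Counts of called genes changed with the processing. With MEKi at 24 h, 6 genes passed, against 10 with the mean over a gene's own probe sets, 11 with a trended and robust prior, and 5 to 10 when 1 array was left out. With MEKi at 72 h, 9 passed, against 15 in a fit of all 12 arrays and 3 to 10 when 1 array was left out. The MEKi effects at the 2 times differed for 8 genes, against 13 among the brighter probe sets, 14 with the trended and robust prior, and 5 to 10 when 1 array was left out. Over time the counts were 12 with MEKi (9 to 14 when 1 array was left out) and 28 with DMSO (20 to 27). The cause of these changes was not tested, except that fewer probe sets or fewer arrays enter some of the fits by construction.

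With the replicate block, 6 genes passed with MEKi at 24 h, 13 with MEKi at 72 h, 10 over time with MEKi, 25 over time with DMSO and 11 for the difference of the MEKi effects. Every call at 72 h, at 24 h and of the difference was kept under the block, and the calls lost over time were 2 with MEKi (Pfkfb4 and Pdk1) and 3 with DMSO (Pgk1, Pgam1 and Pdha1). Same-numbered arrays correlated at 0.0729 to 0.151 at 24 h, where every array correlated best with the one of its own number. Among brighter probe sets these values were 0.207 to 0.283 at 24 h and 0.214 to 0.307 at 72 h. Arrays of the same number thus deviated together at 24 h as well. Over time same-numbered arrays correlated at -0.0174 to 0.107 and were taken to share only a number, since with MEKi those of different numbers reached 0.1.

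For single genes, 476 values under the other settings kept their direction and side of the threshold, 21 no longer passed and 7 passed newly. With 1 array left out, 402 were kept, 92 no longer passed and 3 passed newly. Signs turned only where the difference was near 0. Hk2 with MEKi at 24 h was 0.007 after repeated quantile normalization and -0.042 to 0.038 when 1 array was left out. Aldoa with MEKi at 72 h was 0.017 after repeated quantile normalization and -0.078 to 0.017 when 1 array was left out. For Hk1, the MEKi effect at 72 h minus that at 24 h was 0.015 as the mean over its probe sets and -0.145 to 0.14 when 1 array was left out. The shift of Hk2 minus Hk1 over time with MEKi was -0.22 to 0.03. The planned shifts of Eno2 minus Eno1 were not run, since Eno1 had no probe set of its own. The 2 probe sets below the median brightness, of Pdk2 and Pdk4, can hide changes, and those near the top of the scale, of Gapdh, Pgk1, Aldoa, Tpi1 and Ldha, can understate them.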
